A study of Mus musculus with 6 samples.

Results

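In all, 10 genes of muscle contraction were read from RNA-seq libraries of mouse tailbud. They are the troponin genes Tnnc1, Tnnt2 and Tnni1, the actin genes Acta2 and Actc1, the myosin light chain genes Myl4 and Myl7, the myosin heavy chain genes Myh6 and Myh7, and Nkx2-5, which encodes a cardiac transcription factor. These are 10 of 35506 genes in the table, and 9 of them were among the 13617 autosomal genes with enough reads to be tested. Tnnc1 was picked because its values did not overlap between the groups. Its difference between WT and MommeD43 is therefore a description and carries no test. The other 9 are genes of the same apparatus, named beside it.

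Striated and smooth muscle contract when myosin heads pull on actin filaments. In heart and slow skeletal muscle, calcium binds troponin C, encoded by Tnnc1, which acts with troponin T and troponin I to move tropomyosin on the thin filament. Smooth muscle lacks troponin and is switched on through phosphorylation of its myosin light chain. Several of these genes are expressed widely in the early embryo. Acta2, for example, is known both as a smooth muscle actin and as an actin of early heart and somite cells. The tailbud is the growing posterior end of the embryo, and its presomitic mesoderm gives rise to the vertebral column and to skeletal muscle, not to the heart.

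Tailbud was dissected at embryonic day 8.5 from FVB/NJ embryos with 8 somites, 3 of genotype Smchd1+/+ (WT) and 3 of genotype Smchd1MommeD43/MommeD43 (MommeD43). MommeD43 is a missense allele of Smchd1, from a chemical mutagenesis screen in mice, and Smchd1 encodes a chromatin protein that takes part in X inactivation and gene silencing. Replicate 1 of each group was a male and replicates 2 and 3 were females. Each library was 1 embryo. The labels give both males the same mother and every female a mother of her own. The cut was made below the last formed somite, so that the somites themselves were left out. Library totals, inferred from the deposited values, ran from 10957916 reads in MommeD43 replicate 1 to 47298348 reads in MommeD43 replicate 2, which was 4.32 times as deep. Values are RPKM, that is reads scaled to the exon length of the gene and to the depth of the library. The 95% counting intervals of single values are exact (Clopper-Pearson) and cover counting error only. In whole tissue, fewer cells of a type and less RNA per cell cannot be told apart.

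The labelled tissue was first set against its markers. The 13 tailbud and presomitic mesoderm markers summed to between 876 and 1206 RPKM in WT and between 867.8 and 1106 RPKM in MommeD43. T (brachyury), which defines the tailbud progenitors, was at 117 RPKM or above in every library. The 11 heart markers together reached no more than 5.52 RPKM in any library, and Nkx2-5 and Nppa (atrial natriuretic peptide) each had reads in a single library. Apart from Acta2, the genes described here rested on no more than 236 reads in any library.

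Per length of exon, Acta2 stood far above the other members, at a mean of 32.9 RPKM over the 6 libraries. Myl7 followed at 2.08 RPKM, Tnnc1 at 1.93 RPKM, Actc1 at 1.20 RPKM, Tnni1 at 0.681 RPKM, Myl4 at 0.232 RPKM, Tnnt2 at 0.161 RPKM, Myh6 at 0.153 RPKM and Myh7 at 0.148 RPKM. Nkx2-5 came last at 0.00794 RPKM. Ranges over the 6 libraries were apart only between Acta2 and Myl7, between Tnni1 and Myl4, and between Myh7 and Nkx2-5. The remaining neighbours in this order overlapped. Myl7 was above Tnnc1 in 3 of 6 libraries, Tnnt2 above Myh6 in 3 of 6, and Myh6 above Myh7 in 3 of 6. Among all tested genes, 88.9% had a lower mean than Acta2, 30.5% a lower mean than Tnnc1, and 2.91% a lower mean than Myh7.

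Set beside their relatives, the members were the most abundant form in some families and not in others. Tnnc2, the troponin C of fast skeletal muscle, had 2 reads in all 6 libraries together, against 293 for Tnnc1. Troponin T showed the reverse order, as the cardiac form Tnnt2 (0.161 RPKM) was below the fast skeletal form Tnnt3 (1.34 RPKM) and the slow skeletal form Tnnt1 (0.388 RPKM). The slow skeletal troponin I gene Tnni1 (0.681 RPKM) was close to the cardiac form Tnni3 (0.587 RPKM). Acta2 made up between 92.8% and 96.7% of the summed RPKM of the 4 muscle actin genes in each library. The smooth muscle myosin heavy chain gene Myh11, at 0.0180 RPKM, was lower than Myh6 and Myh7, and the perinatal form Myh8 had no read in any library.

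**Figure D1:**
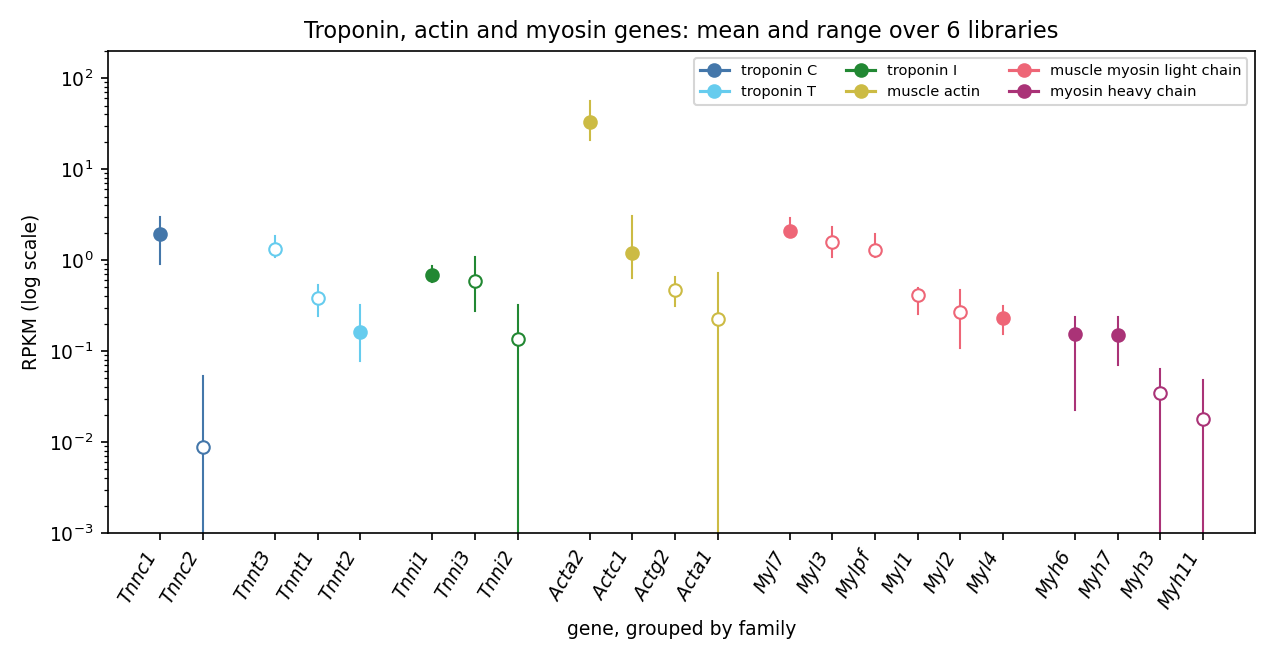
Level of each muscle troponin, actin and myosin gene in tailbud, in RPKM on a log axis, as the mean (point) and the range (line) over the 6 libraries; filled points are the members described here, lines that reach the bottom of the axis include a library with no read, and Myh8, with no read, is not drawn. Acta2, at a mean of 32.9 RPKM, lies above every other gene shown, while Tnnc2 lies lowest at 0.00881 RPKM.

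The sequences before the start sites of Tnnc1, Myl7 and Actc1 are shown because these are the members with a mean of at least 1 RPKM whose upstream window is free, or almost free, of annotated exon. Each is the 250 bases upstream of the RefSeq start on the GRCm38.p6 build, written 5′ to 3′ on the strand of the gene. They lie at chr14:31208062-31208311 (plus strand) for Tnnc1, at chr11:5898783-5899032 (minus strand) for Myl7 and at chr2:114052876-114053125 (minus strand) for Actc1. Capitals mark 3 motifs, searched on both strands. The first is the CArG box, which serum response factor binds, taken here with only A and T between CC and GG. Another is CATTCC, the core of the site that TEAD factors bind in muscle promoters, which on the other strand reads GGAATG. The last is TATATA, a variant of the box that positions the start of transcription.
Tnnc1: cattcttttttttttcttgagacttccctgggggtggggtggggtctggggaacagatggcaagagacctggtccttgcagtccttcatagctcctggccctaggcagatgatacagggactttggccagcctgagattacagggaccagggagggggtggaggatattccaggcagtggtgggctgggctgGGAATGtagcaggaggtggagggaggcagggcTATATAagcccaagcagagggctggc
Myl7: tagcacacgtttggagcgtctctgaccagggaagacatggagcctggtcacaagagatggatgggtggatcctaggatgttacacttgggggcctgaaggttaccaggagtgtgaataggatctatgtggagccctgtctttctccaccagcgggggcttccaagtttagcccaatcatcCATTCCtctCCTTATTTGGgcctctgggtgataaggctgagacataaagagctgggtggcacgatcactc
Actc1: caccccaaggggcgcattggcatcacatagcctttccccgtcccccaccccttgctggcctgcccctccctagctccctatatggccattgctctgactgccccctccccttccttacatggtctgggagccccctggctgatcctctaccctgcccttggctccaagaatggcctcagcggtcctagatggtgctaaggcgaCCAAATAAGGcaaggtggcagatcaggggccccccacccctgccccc
In Tnnc1, the CATTCC match lay 58 to 53 bases before the start. The TATATA match of Tnnc1 lay 26 to 21 bases before it. Myl7 had CATTCC 70 to 65 bases and a CArG box 61 to 52 bases before the start, with 3 bases between them. The CArG box of Actc1 lay 47 to 38 bases before its RefSeq start. The annotation used for the counts places the start of Actc1 at 114053548, so that this window lies within the gene as counted.

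All 10 members had a RefSeq window of this kind, and Tnnt2, Tnni1 and Myh7 had more than 1. A CArG box of the strict form was found for 2 members, Myl7 and Actc1, and in 1.47% of all 32851 mouse windows of the same length. Looser forms with a G or C between CC and GG were not counted. An example is CCCTATATGG, which occurs in the windows of Acta2 and Actc1. CATTCC was found for 6 members, namely Tnnc1, Tnnt2, Myl7, Acta2, Myh6 and Myh7, and in 12.6% of all windows. TATATA was found for Tnnc1 and Myh7 and in 5.25% of all windows. The usual form of that box, TATAAA, was found for 0 members and in 12.4% of all windows. GATAA, bound by GATA factors, was found for Tnnt2, Myl7 and Acta2 and in 22.6% of all windows. The E-box CANNTG, bound by MyoD-like factors, was found for 8 members and in 66.2% of all windows. A match of letters is a description of the window and not a measured site.

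Tnnc1 (ENSMUSG00000091898) lies on chromosome 14 from 31208312 to 31211729 on the plus strand, with 1041 bases of exon. In WT it was at 1.50 RPKM in replicate 1 (57 reads, 95% interval 1.13 to 1.94), 0.895 RPKM in replicate 2 (22 reads, 0.561 to 1.36) and 1.50 RPKM in replicate 3 (26 reads, 0.982 to 2.20). In MommeD43 it was at 2.98 RPKM in replicate 1 (34 reads, 2.06 to 4.17), 2.52 RPKM in replicate 2 (124 reads, 2.10 to 3.00) and 2.20 RPKM in replicate 3 (30 reads, 1.49 to 3.14). All 3 MommeD43 libraries were above all 3 WT libraries, which is the property it was picked on. The counting interval of WT replicate 3 overlapped that of each MommeD43 library.

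The means of Tnnc1 were 1.30 ± 0.349 RPKM in WT and 2.57 ± 0.392 RPKM in MommeD43 (SD, n = 3 each). On the log2 RPKM scale the difference was 1.01 with a standard error of 0.23, a fold of 2.02. Among all genes tested, 481 (3.53%) were non-overlapping and higher in MommeD43, and 964 (7.08%) were non-overlapping in either direction. The gap between the lowest MommeD43 and the highest WT library was 0.55 on the log2 scale for Tnnc1. The member just outside the rule was Actc1, whose lowest MommeD43 library was 0.08 below its highest WT library (a gap of -0.08). In females the log2 difference of Tnnc1 was 1.02 and between the single males 0.995. Leaving out each library in turn gave 0.765 to 1.14 for Tnnc1, and a pseudocount of 1 RPKM, which shrinks the differences of low genes, gave 0.64.

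Tnnc1 lies within an intron of Nisch, a gene on the opposite strand of chromosome 14 from 31170930 to 31216946, and the exons of the 2 genes do not overlap. Nisch, which encodes the imidazoline receptor protein nischarin, was expressed at 42.3 to 47.4 RPKM, many times the level of Tnnc1. It differed by -0.01 on the log2 scale (standard error 0.06, limma, Benjamini-Hochberg adjusted p = 0.999), and its groups overlapped. The libraries were made with a strand-marking kit, but whether strand was used in counting is not given in the sources used here. Any part of unspliced Nisch RNA in the reads of Tnnc1 was not tested. No stretch of 75 bases of Tnnc1 transcripts, the length of a read, was shared with another gene.

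The nearest tested protein-coding genes on either side were also low. Sema3g, which encodes a semaphorin of blood vessels, starts 6131 bases beyond Tnnc1. Its mean was 1.22 ± 0.213 RPKM for WT and 1.89 ± 0.363 RPKM for MommeD43 (SD, n = 3 each), with all MommeD43 libraries above all WT libraries. Its log2 difference of 0.63 (standard error 0.20) did not pass the test (limma, adjusted p = 0.999). Stab1, a scavenger receptor gene of endothelium and macrophages 39671 bases away on the other side, differed by 0.59 (standard error 0.34) and its groups overlapped.

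The other 2 troponin members did not separate the groups. Tnnt2 (chromosome 1, 135836354 to 135852260), the cardiac troponin T that ties the complex to tropomyosin, was at 0.137, 0.142 and 0.0776 RPKM in WT replicates 1, 2 and 3. In MommeD43 it was at 0.200, 0.322 and 0.0887 RPKM. MommeD43 replicates 1 and 2 were above all WT libraries, and replicate 3 was among the lower values. The log2 difference was 0.64 with a standard error of 0.56 (limma, unadjusted p = 0.284, adjusted p = 0.999). It rested on 9 to 118 reads per library and was 0.21 when MommeD43 replicate 2 was left out, or 1.14 when MommeD43 replicate 3 was.

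Tnni1 (chromosome 1, 135779434 to 135810989), the troponin I of slow skeletal muscle and of the embryonic heart, was the steadiest member. WT replicates 1, 2 and 3 had 0.577, 0.612 and 0.702 RPKM, and MommeD43 replicates 1, 2 and 3 had 0.583, 0.740 and 0.870 RPKM. The highest value was only 1.51 times the lowest, and the groups overlapped. The log2 difference was 0.20 with a 95% interval of -0.33 to 0.73 (limma, adjusted p = 0.999).

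Of the actins, Acta2 (chromosome 19, 34241090 to 34255590, minus strand) was the one member with deep coverage, at 758 to 5859 reads per library. It was at 21.1, 33.5 and 26.0 RPKM in WT replicates 1, 2 and 3, and at 31.5, 56.4 and 28.7 RPKM in MommeD43. MommeD43 replicate 2 was the highest library, and the other MommeD43 libraries were within the WT range. Means were 26.9 ± 6.25 RPKM and 38.9 ± 15.3 RPKM (SD, n = 3 each). The log2 difference of 0.49 (standard error 0.26, 95% interval -0.10 to 1.08) did not pass the test (limma, unadjusted p = 0.0924, adjusted p = 0.999). Without MommeD43 replicate 2 it was 0.19. As a share of the non-muscle actin Actb, the cytoskeletal actin of all cells, Acta2 RPKM was 2.40%, 3.88% and 3.15% in WT and 3.91%, 6.32% and 3.27% in MommeD43, so that the same library stood highest on this scale.

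Actc1 (chromosome 2, 114047282 to 114053548, minus strand) encodes the actin of heart muscle, which is also made in embryonic skeletal muscle. It was at 0.945, 0.733 and 0.632 RPKM in WT (56, 28 and 17 reads) and at 0.902, 3.08 and 0.897 RPKM in MommeD43 (16, 236 and 19 reads). MommeD43 replicate 2 was thus 4.01 times the WT mean, while both other MommeD43 libraries were 1.17 times that mean and within the WT range. Its counting interval, 2.70 to 3.50 RPKM, lay above the intervals of all other libraries. The log2 difference of 0.84 (standard error 0.46, limma, unadjusted p = 0.105, adjusted p = 0.999) became 0.25 without MommeD43 replicate 2. It was 1.29 in females and -0.07 between the males, and the interaction of genotype and sex was not significant (limma, adjusted p = 0.612).

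Levels of other muscle and mesoderm lists in MommeD43 replicate 2 went both ways. The 12 smooth muscle contractile genes described further on summed to 100.8 RPKM there, above the 63.5 to 82.0 RPKM of WT and the 76.8 and 85.7 RPKM of MommeD43 replicates 1 and 3. The 5 defining smooth muscle markers summed to 8.76 RPKM, against 8.22 to 10.3 RPKM in WT, a sum made mostly of Smtn (7.90 RPKM in that library), while Cnn1 was highest there at 0.618 RPKM. The 11 heart markers summed to 3.91 RPKM, against 3.64 to 5.52 RPKM in WT. The 10 lateral mesoderm and allantois markers summed to 182.4 RPKM, just above the WT range of 164.9 to 181.4 RPKM. MommeD43 replicates 1 and 3 had 165.8 and 194 RPKM on that list, so that replicate 3 stood highest. MommeD43 replicate 2 was also the deepest library. The part of depth or of other cells in its actin values was not tested.

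**Figure D2:**
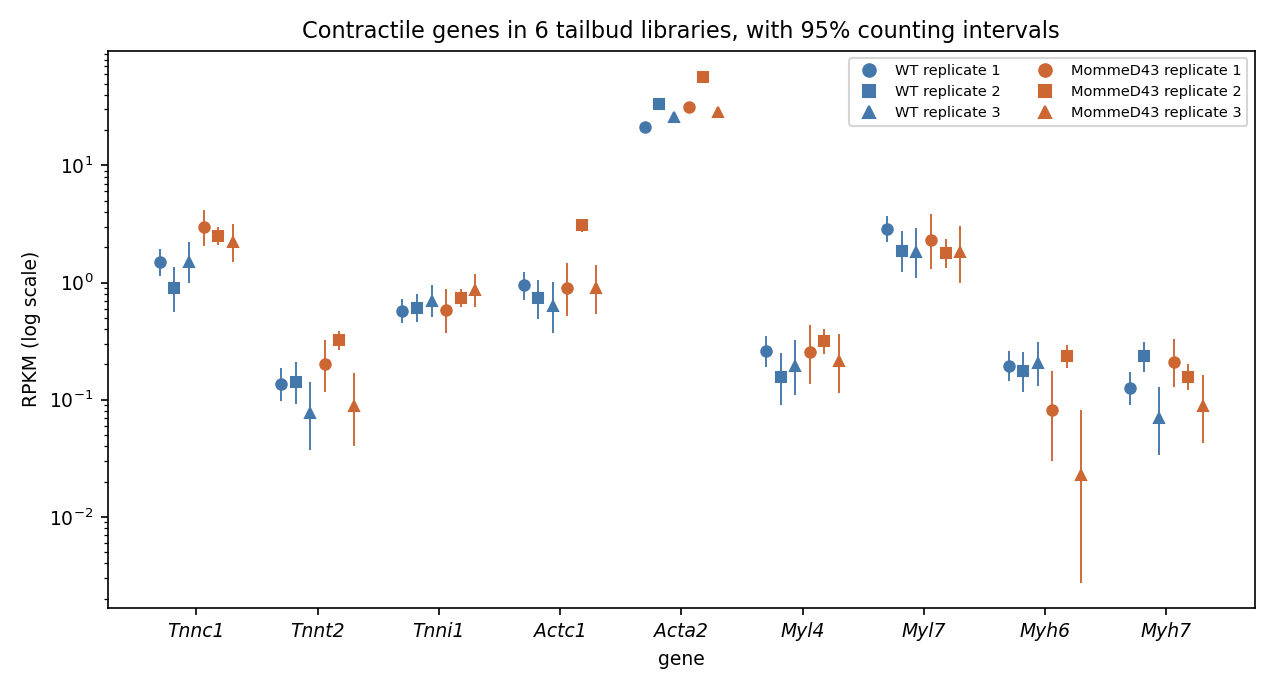
RPKM (log axis) of the 9 tested contractile genes in each of the 6 tailbud libraries, with 95% counting intervals; blue marks WT, orange MommeD43, and circles, squares and triangles mark replicates 1, 2 and 3. The 3 orange points of Tnnc1 (2.20 to 2.98 RPKM) are above its blue points (0.895 to 1.50 RPKM), whereas the groups overlap for each other gene and the orange square of Actc1 stands alone at 3.08 RPKM.

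Of the light chains, Myl7 (chromosome 11, 5896637 to 5898782, minus strand), the regulatory light chain of atrial and early heart muscle, was at 2.87, 1.87 and 1.84 RPKM in the WT libraries and at 2.32, 1.79 and 1.81 RPKM in MommeD43 replicates 1, 2 and 3. Both males were above all females, with 1 male per group and a mother shared by the pair. The groups overlapped, and the log2 difference was -0.13 with a 95% interval of -0.60 to 0.35 (limma, adjusted p = 0.999). Without WT replicate 1 its sign turned, to 0.08. Each library held 14 to 62 reads of this gene, which has only 590 bases of exon.

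Myl4 (chromosome 11, 104550663 to 104595753), the essential light chain of atrial and embryonic muscle, was at 0.259, 0.155 and 0.195 RPKM in the WT libraries and at 0.256, 0.315 and 0.214 RPKM in MommeD43. Only MommeD43 replicate 2 was above all WT libraries. The log2 difference was 0.38 with a standard error of 0.35 (limma, adjusted p = 0.999), and it was 0.58 between females and -0.02 between males. It was 0.20 without WT replicate 2 and 0.24 without MommeD43 replicate 2.

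The heavy chain genes lie side by side on chromosome 14, Myh6 from 54941921 to 54966927 and Myh7 from 54970684 to 54994626, both on the minus strand. Myh6 encodes the fast alpha form and Myh7 the slow beta form of cardiac myosin. Of all stretches of 75 bases in Myh6 transcripts, 13.7% also occur in Myh7, and 10.6% of those in Myh7 occur in Myh6. Reads from these stretches cannot be given to 1 gene, and the values of both are uncertain to that extent. In addition, 13.3% of the exon length of Myh7 is covered by genes of the opposite strand, such as the antisense RNA Mhrt.

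Myh6 was at 0.195, 0.176 and 0.206 RPKM in WT, the narrowest WT spread of any member relative to its mean. In MommeD43 it was at 0.0814 RPKM (6 reads), 0.236 RPKM (75 reads) and 0.0227 RPKM (2 reads), 1 library above the WT range and the other two below it. The counting interval of replicate 3, 0.00275 to 0.0821 RPKM, lay below those of the 3 WT libraries. The log2 difference of -1.34 was the largest in size among the members and also the least precise, with a standard error of 0.78 (limma, unadjusted p = 0.125, adjusted p = 0.999). It was -0.47 without MommeD43 replicate 3 and -2.16 without MommeD43 replicate 2. The heart marker sum of MommeD43 replicate 3 was 3.52 RPKM, close to the 3.64 and 3.72 RPKM of WT replicates 2 and 3. That list includes Myh6 itself, so its sum is not independent of the Myh6 value. The part of heart cells in the Myh6 value was not tested.

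Myh7 was at 0.127, 0.236 and 0.0698 RPKM in the WT libraries and at 0.212, 0.157 and 0.0887 RPKM in MommeD43. The MommeD43 values all fell between the lowest and the highest WT value. The log2 difference was 0.17 with a standard error of 0.57 (limma, adjusted p = 0.999). Myh6 was 1.54, 0.747 and 2.95 times Myh7 in the WT libraries and 0.384, 1.50 and 0.256 times Myh7 in the MommeD43 libraries, and these ratios of RPKM overlapped.

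Nkx2-5, the homeobox factor of the early heart field, had 3 reads in WT replicate 1 and none in the other 5 libraries. This number of reads was also taken as the floor, which corresponds to between 0.0369 and 0.159 RPKM in the libraries without a read. The gene did not have enough reads to be tested, and no difference could be detected at this depth.

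Taking the 9 tested members as a group, 7 had a log2 difference above 0 and 2 (Myl7 and Myh6) below 0, beside 51.0% above 0 among all genes tested. Their median was 0.38, beside 0.0025 for all genes. Without Tnnc1, 6 of 8 were above 0 and the median was 0.29. Of these 8, 0 passed an adjusted p of 0.05 and 0 had an unadjusted p under 0.05 in limma, the smallest being 0.0924 for Acta2. Across all genes 0 of 13617 passed (0%), and 327 had an unadjusted p under 0.05. The groups of 0 of these 8 were apart, in either direction, beside 7.08% of all genes tested. So few members cannot be told apart from that share. Every tested member but Myh6 reached the read threshold in all 6 libraries, and Myh6 did so in 5.

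**Figure D3:**
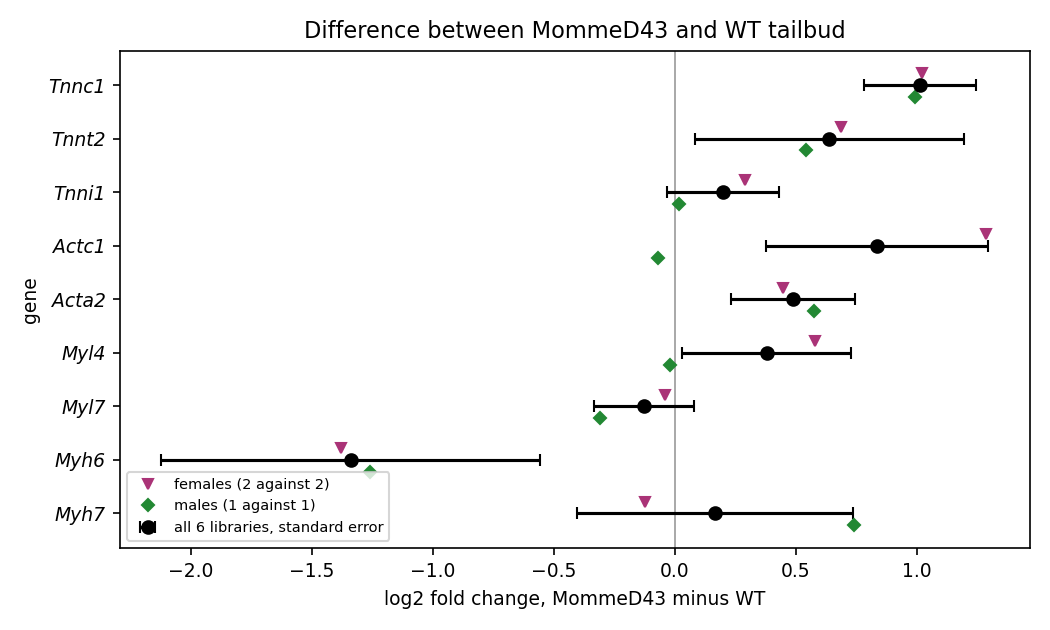
Log2 fold change (MommeD43 minus WT) of the 9 tested contractile genes, as the estimate from all 6 libraries with its standard error (black), and as the difference within females (triangles) and between the single males (diamonds). Black points run from -1.34 for Myh6 to 1.01 for Tnnc1, the gene picked on this contrast, and the triangle and diamond of Actc1 are farthest apart, at 1.29 and -0.07.

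Differences between the sexes in the effect of genotype were tested with 2 residual degrees of freedom. None of the 9 members passed, with a smallest adjusted p of 0.612 (limma), where 37 of all 13617 genes (0.272%) passed. At an unadjusted p under 0.05 in limma there were 0 of the 9 members, beside 10.8% of all genes. So few members cannot be told apart from that share. In Tnnc1, Tnnt2 and Acta2 the difference was above 0 in both sexes, at 1.02 and 0.995, 0.69 and 0.54, and 0.45 and 0.58 for females and males. Myh6 was below 0 in both, at -1.38 and -1.26. Sex could not be told apart from mother in the males.

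High values were concentrated in 1 library. MommeD43 replicate 2 held the highest value of 5 of the 9 tested members, namely Tnnt2, Myl4, Actc1, Acta2 and Myh6, and was above the mean of all libraries for 8 of them. Its summed RPKM over the 9 members was 65.6, beside 27.7 to 38.3 in WT and 39.0 and 34.9 in the other MommeD43 libraries. Without Acta2, which dominates that sum, the 8 remaining members summed to 9.16 RPKM there, to 7.54 and 6.20 RPKM in MommeD43 replicates 1 and 3, and to 6.61, 4.81 and 5.22 RPKM in WT. The highest library was another for Tnnc1 (MommeD43 replicate 1), Tnni1 (MommeD43 replicate 3), Myl7 (WT replicate 1) and Myh7 (WT replicate 2). The median difference of the members was 0.19 without MommeD43 replicate 2.

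The wider contractile apparatus was then described with gene lists chosen for this report, members left out. Among 22 cardiac filament and Z-disc genes, 12 were tested, 9 had values higher in MommeD43 and 3 lower, 0 passed the test and the median log2 difference was 0.15. The most abundant were Tpm1, Tpm2 and Cryab. Tpm1, a tropomyosin of muscle and many other cells, had 68.9, 82.2 and 77.6 RPKM in the WT libraries and 71.4, 103.7 and 87.8 RPKM in those of MommeD43. Tpm2, a second tropomyosin gene, differed by 0.30 (standard error 0.17), and Cryab, a small heat shock protein of Z-discs, by 0.39 (standard error 0.35). Ttn, which encodes the giant spring protein titin, had a mean of 0.000238 RPKM over the 6 libraries.

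Smooth muscle contractile genes showed the most uniform direction of the 6 lists. Of 12 genes 10 were tested, and all 10 had a log2 difference above 0, with a median of 0.22, while 0 passed the test after adjustment (limma). An unadjusted p under 0.05 was seen for 3 (327 of all 13617 genes), namely Csrp1, Tagln and Actg2, the last pair named after their values were seen. Csrp1, a LIM protein of smooth muscle, had 29.7, 33.9 and 34.7 RPKM in the WT libraries and 34.3, 41.4 and 37.4 RPKM in those of MommeD43 (log2 difference 0.20, standard error 0.09). Tagln, which encodes the actin-binding protein transgelin, had 2.23, 7.26 and 3.75 RPKM in the WT libraries and 5.83, 14.8 and 7.07 RPKM in those of MommeD43, again highest in MommeD43 replicate 2. Actg2, the enteric smooth muscle actin, had 0.316 to 0.386 RPKM in the WT libraries and 0.540 to 0.645 RPKM in those of MommeD43.

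The groups were apart for 3 of these 10 genes, Actg2, Cnn1 and Synpo2, each higher in MommeD43, beside 3.53% of all genes tested that were apart in that direction. Cnn1 and Synpo2 were also named after their values were seen. Cald1 (caldesmon, which binds actin and tropomyosin) and Myl9 (the regulatory light chain of smooth muscle myosin), the next most abundant, differed by 0.17 and 0.23 with standard errors of 0.17 and 0.15. The list summed to 63.5 to 82.0 RPKM in WT and 76.8 to 100.8 RPKM in MommeD43, and these ranges overlapped. Of the genes that define mature smooth muscle, Myh11 and Lmod1 did not have enough reads to be tested, and Myh11 had no read in 2 libraries.

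Of 18 cardiac transcription factors 17 were tested, with 10 above and 7 below 0, 0 past the test and a median of 0.04. Hand1, a factor of the left ventricle and of posterior lateral mesoderm, was the most abundant, with 49.6 to 59.1 RPKM in the WT libraries and 46.8 to 67.4 RPKM in MommeD43. Srf, the CArG-binding serum response factor, differed by -0.10 (standard error 0.08), and Hand2 by 0.15 (standard error 0.29). Tbx5 did not have enough reads to be tested.

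Of 11 genes of cardiac calcium handling and natriuretic peptides, 5 were tested, 1 above and 4 below 0 with a median of -0.39, and 0 passed. Atp2a2, the calcium pump of the sarcoplasmic and endoplasmic reticulum in muscle and other cells, had 64.1 to 65.9 RPKM in the WT libraries and 61.2 to 69.1 RPKM in those of MommeD43. Hcn4, a pacemaker channel gene, differed by -0.42 (standard error 0.33). The groups of Slc8a1 (the sodium-calcium exchanger, -0.39, standard error 0.32) and Cacna1c (a calcium channel subunit, -0.36, standard error 0.30) were apart and lower in MommeD43, beside 7.08% of all genes apart in either direction. Slc8a1 was named after its values were seen. Trdn and Sln had no read in any library.

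Of 14 skeletal muscle genes 5 were tested, 3 above and 2 below 0 with a median of 0.01, and 0 passed. These included Mef2d, a muscle transcription factor gene that is widely expressed (0.01, standard error 0.08), and the fast muscle genes Tnnt3 (0.20, standard error 0.21) and Mylpf (0.15, standard error 0.25). Myog, the factor of muscle differentiation, and Myh8 had no read in any library. Of 10 non-muscle actin, myosin and tropomyosin genes, all 10 were tested, with 7 above and 3 below 0, a median of 0.04 and 0 past the test. Actb, Actg1 and Tpm4 of that list differed by 0.00, 0.04 and 0.05. The groups of Myl6, a light chain of non-muscle and smooth muscle myosin, were apart, with a log2 difference of 0.12 (standard error 0.06). That was 1 of the 10 genes, beside 7.08% of all genes tested apart in either direction. Myl6 too was named after its values were seen.

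Marker lists of neighbouring tissues were spread widely between libraries. The 8 primitive blood markers summed to 8.92, 485.8 and 205.2 RPKM in WT replicates 1, 2 and 3 and to 25.5, 220.0 and 22.8 RPKM in MommeD43. The 8 yolk sac endoderm markers summed to 136.3, 246.3 and 276.9 RPKM in WT and to 430.6, 50.7 and 37.2 RPKM in MommeD43. All 6 tested blood markers and all 8 yolk sac markers had a log2 difference below 0, with medians of -0.90 and -1.11. Endothelial markers, 7 in number, summed to 23.6 to 42.4 RPKM in WT and 32.3 to 44.0 RPKM in MommeD43. Of the 7, 5 were above 0, with a median of 0.39, beside 0.38 for the contractile members. By sex, the 7 endothelial differences ran from -1.04 to 0.18 in females and from 0.55 to 2.33 between the single males, beside 1.02 and 0.995 for Tnnc1. Somite markers, also 7, summed to 3.06 to 3.80 RPKM and 2.86 to 3.86 RPKM. The 5 anterior neural markers stayed at or under 0.753 RPKM. Of single markers, Cnn1, Bmp4 and Wnt2 were apart and higher in MommeD43, beside 3.53% of all genes tested. Bmp4 and Wnt2 were named after their values were seen. The summed RPKM of the 2 groups overlapped in range for each of the 9 marker lists, and 0 genes passed the test of genotype. The interaction of genotype and sex, by contrast, passed in limma for 5 of 8 yolk sac markers (Ttr, Apob, Afp, Rbp4 and Cubn), which were lower in MommeD43 females and higher in the MommeD43 male. It also passed for 3 of 12 tailbud markers (T, Msgn1 and Wnt3a), with the opposite signs, and these genes were named after their values were seen. Among all 13617 genes tested, the share that passed was 0.272%, in a fit with a single male per genotype. The part of blood, yolk sac or vessel RNA in the values of Tnnc1 and the other members was not tested.

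**Figure D4:**
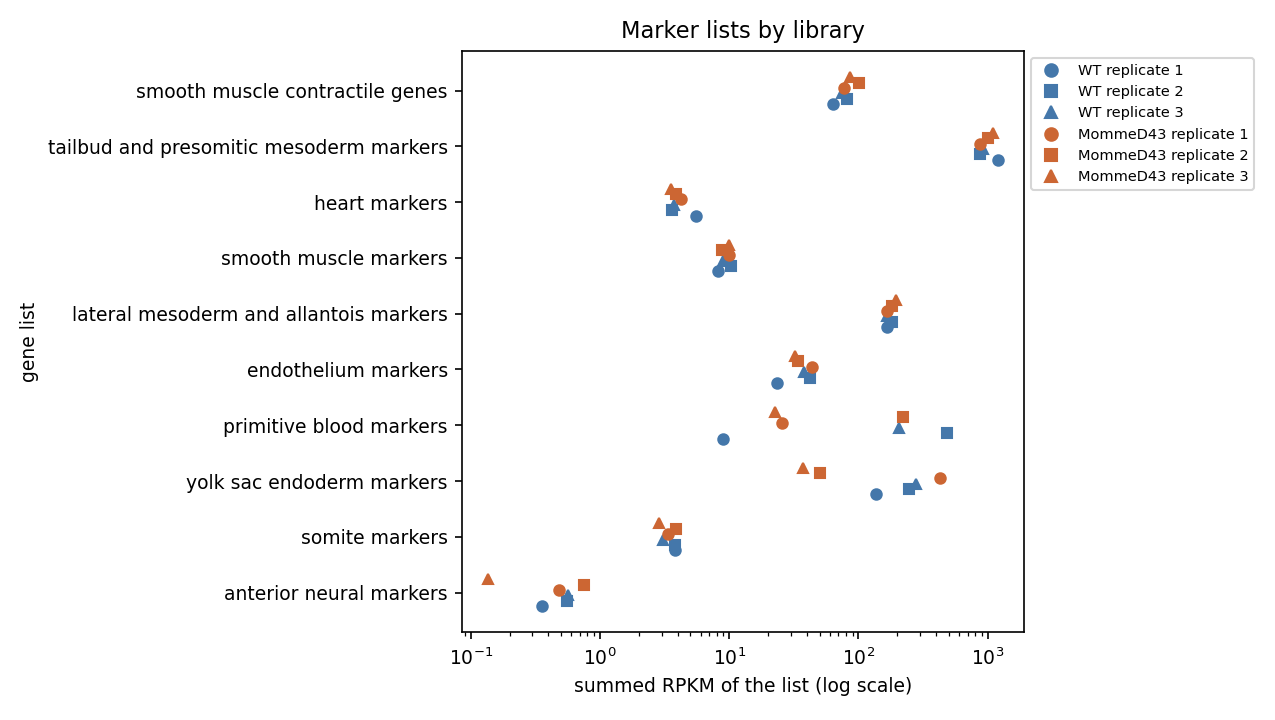
Summed RPKM (log axis) of the smooth muscle contractile list and of 9 marker lists in each of the 6 libraries; blue marks WT, orange MommeD43, and circles, squares and triangles mark replicates 1, 2 and 3. Tailbud markers lie between 867.8 and 1206 RPKM and heart markers between 3.52 and 5.52, while blood (8.92 to 485.8) and yolk sac endoderm (37.2 to 430.6) markers are spread widely within both groups.

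The genes with the profile most like that of Tnnc1 were found by the root-mean-square difference of log2 RPKM over the 6 libraries, each gene centred on its own mean, among 10676 autosomal genes with a mean of at least 1 RPKM. The 5 closest were Emp3 (0.26), Gm20186 (0.28), Gm20457 (0.28), S100a6 (0.31) and Gm27027 (0.32), where the median over all these genes was 0.59. Emp3, an epithelial membrane protein gene, had 1.84, 1.27 and 1.69 RPKM in the WT libraries and 2.47, 2.35 and 2.71 RPKM in those of MommeD43. S100a6, which encodes the calcium-binding protein calcyclin, had 3.78, 3.90 and 4.89 RPKM in the WT libraries and 7.28, 6.42 and 5.37 RPKM in those of MommeD43. Much of the exon length of the 3 genes known by Gm names is shared with another gene, 81.4% for Gm20186 and 56.3% for Gm20457 on the opposite strand and 84.3% for Gm27027 on its own strand, and these values are uncertain. None of the 5 is a sarcomere gene. Among the members, Myl4 (0.38) was the closest to Tnnc1 and Myh6 (1.51) the farthest, with Tnni1 (0.56), Acta2 (0.60), Myl7 (0.62), Actc1 (0.68), Tnnt2 (0.70) and Myh7 (0.88) between them. A gene with the same value in every library would stand at 0.58, and of the members only Myl4 and Tnni1 were closer than that. Closeness to Tnnc1 uses the same contrast that Tnnc1 was picked on and is a description only.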

How the data were processed

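RNA-seq was made from tailbud of 6 FVB/NJ embryos, 3 per genotype, and GEO's labels gave genotype, replicate number and sex. Their source field reads NSCs, and their tissue field, which was followed, tailbud. Polyadenylated RNA was made into libraries with a stranded TruSeq kit, per the labels, and read as single-end 75-base reads. According to the submitters' processing notes and the methods, trimming was done with Trim Galore 0.4.4, mapping to GRCm38.p6 with HISAT2 2.0.5 and quantification per gene with SeqMonk. The deposited values are log2 RPKM, which the authors made from reads per gene, exon length and library size. Whether counting used strand is not given in the sources used here. Columns of group means were not used, and the number of columns with values of no sample was 0.

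Of 35591 rows, 35555 matched GENCODE M21 by identifier, with identical coordinates for 99.4%. Of 49 repeated identifiers, only the most abundant row was used. Library totals were inferred from the deposited values, by taking the level shared by undetected genes as 0.9 read. Whole reads were then recovered from RPKM, exon length and these totals, so that read numbers and counting intervals rest on that assumption. Of 35486 values under 50 reads, 98.5% were whole within 0.02. The filter asked for 15 reads in all and, in 3 or more libraries, for the CPM (reads scaled to depth) that 10 reads give in a median library, which 14134 genes passed, 13617 of them autosomal. Undetected values were printed as 0 RPKM.

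Log2 RPKM values were tested without a pseudocount with limma 3.58.1 (R 4.3.3), using a mean-variance trend, a two-sided test and Benjamini-Hochberg adjustment over all autosomal genes. Sex was examined as an interaction with genotype. The inferred depth of 10957916 to 47298348 reads put the floor of 3 reads for Tnnc1 between 0.0609 and 0.263 RPKM. The code was tested on simulated data. Promoter windows were from RefSeq. The other steps used scipy 1.17.1, pandas 2.3.3 and numpy 2.4.6 in Python 3.11.15, and figures matplotlib 3.10.9.

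The members and the gene lists were chosen with earlier results of these data known. Named were all 10 members, from each list the genes past the test or else the 3 most abundant tested, the 5 genes most like Tnnc1, and the nearest tested protein-coding genes. Nisch, which spans Tnnc1, was added after the data were seen. Replicate numbers were not taken to pair the libraries. Alternatives were median-ratio and quantile scaling, pseudocounts of 0.1 and 1 RPKM, no filter and a stricter one, voom on recovered reads, library weights, a robust fit, a term for sex, the replicate block, leaving out each library, and the females by themselves.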

Additional observations from a re-analysis of the deposited data

Results flagged for a closer look

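The difference between MommeD43 and WT depended on sex for 8 of the marker genes, by the interaction of genotype and sex in limma, adjusted over all 13617 genes. Of the yolk sac endoderm markers these were Ttr (adjusted p = 0.000111), Apob (adjusted p = 0.00520), Rbp4 and Cubn (adjusted p = 0.00803 each) and Afp (adjusted p = 0.0482). Their log2 differences ran from -3.11 to -2.28 in females and from 1.47 to 2.04 between the males. Of the tailbud markers these were Msgn1 (adjusted p = 0.0263), T (adjusted p = 0.0276) and Wnt3a (adjusted p = 0.0493), with 0.26 to 0.37 in females and -0.997 to -0.645 between the males. As each genotype has a single male, sex cannot be told apart from the single embryo or its mother. None of the contractile genes was among these 8, and 37 of all 13617 genes (0.272%) passed.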

How the results depend on the processing

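Under the 18 alternatives run, 0 of the members other than Tnnc1 were called in each. Tnnc1, picked on this contrast, was left out of that count. The number of autosomal genes called was 0 in each alternative but females alone, where it was 10, none of them a member other than Tnnc1. With a mean of at least 1 RPKM required, 3 members were higher in MommeD43, since only 4 members were then tested. Leaving out each library gave 6 to 8 members higher, 0 called, and a median log2 difference of 0.19 to 0.61. Of the 9 tested members, 7 kept the sign of their difference in every alternative run. Myh7 turned from 0.17 to -0.12 in females alone, and over the left-out libraries it ran from -0.27 to 0.61, with the sign also turned without MommeD43 replicate 1 (-0.12). Myl7 ran from -0.25 to 0.083 over the left-out libraries, the latter without WT replicate 1. A pseudocount shrinks the differences of low genes: the median of the members fell to 0.26 with 0.1 RPKM and to 0.084 with 1 RPKM, and was 0.66 over the 4 members with a mean of at least 1 RPKM. With 1 RPKM the difference was 0.64 for Tnnc1, 0.47 for Actc1, 0.48 for Acta2, 0.10 for Tnnt2, 0.084 for Tnni1, 0.069 for Myl4, 0.012 for Myh7, -0.090 for Myl7 and -0.10 for Myh6. Apart from the pseudocount, the causes were not tested. The labels give both embryos of number 1 the same mother, and the paper describes the embryos as somite-paired. Deviations from the group means correlated at -0.03, 0.17 and -0.17 for numbers 1, 2 and 3. With so few libraries these values cannot decide whether the numbers mark pairs. With the replicate block 0 genes were called and 307 had an unadjusted p under 0.05 in limma. The median of the members stayed at 0.38 and 7 members were higher. Members other than Tnnc1 with an unadjusted p under 0.05 were Acta2 with the replicate block, without WT replicate 2 and without MommeD43 replicate 3 (there with Tnnt2), Actc1 in females alone and with library weights, both actins with voom, and Myh6 without MommeD43 replicate 2. Of all 13617 genes, 1188 had such a p in limma in females alone, 707 with library weights and 425 with voom. The count was 425 without MommeD43 replicate 2, 292 without WT replicate 2 and 250 without MommeD43 replicate 3. Members other than Acta2 rest on 236 reads or fewer per library, which limits the precision of each value.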
